A study of Homo sapiens with 2 samples.

Results

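This account covers 6 human genes beside which classical experiments mapped origins of DNA replication: MYC, LMNB2, MCM4, HBB, TOP1 and DNMT1. Their surroundings were examined in nascent strand sequencing of U2OS, an established osteosarcoma line labelled wild type, from which 2 libraries were made from cells arrested by a double thymidine block and released for 2 hours. The block holds cells at the entry to S phase, and both libraries form a single group with no untreated or undigested library analysed here. The members were chosen by position alone: every interval with at least 1 base in a gene or within 50 kb of it, which gave 109 of the 161869 named intervals in the 6 replication timing lists. The same windows held 137 of the 199201 shared pieces, the stretches where peaks of both libraries overlap. In hg19 the genes were placed in whole kb. On chromosome 8 MYC was at 128.748 to 128.754 Mb and MCM4 at 48.873 to 48.891 Mb. On chromosome 19 LMNB2 was at 2.428 to 2.457 Mb and DNMT1 at 10.244 to 10.306 Mb. HBB was on chromosome 11 at 5.246 to 5.249 Mb, and TOP1 on chromosome 20 at 39.657 to 39.753 Mb. Distances to a gene's start or end therefore carry the rounding of those positions. Every fold below is the authors' value for a peak of replicate 1 and has no replicate error, and the read depth behind it is unknown. The cell type could not be checked against marker genes, because DNA positions and not transcripts were measured.

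An origin is licensed in G1 when the MCM helicase, of which MCM4 is a subunit, is loaded on DNA, and it fires in S phase when a fork leaves in each direction. The short strands made first carry an RNA primer that shields them from lambda exonuclease, so their enrichment marks where synthesis began. The classical work placed starts beside the MYC promoter and at the 3′ end of LMNB2. It also placed them between MCM4 and its divergent neighbour PRKDC, in the beta-globin gene region, near the TOP1 promoter and at the DNMT1 locus. These 6 loci have since served as reference sites for origin mapping.

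RefSeq's promoter table held 3 of the 6 genes, and these are also 3 of the 4 genes with an interval within 1 kb of the start. The 250 bases before each start are shown for these 3. MYC, MCM4 and HBB are absent from the table, so promoters with and without an interval nearby could not be compared. The sequences run 5′ to 3′ toward the gene, with each CG in capitals, since unmethylated CG-rich promoters are a common setting of mammalian origins.
TOP1 (GRCh38.p14, chr20:41028572-41028821, plus strand): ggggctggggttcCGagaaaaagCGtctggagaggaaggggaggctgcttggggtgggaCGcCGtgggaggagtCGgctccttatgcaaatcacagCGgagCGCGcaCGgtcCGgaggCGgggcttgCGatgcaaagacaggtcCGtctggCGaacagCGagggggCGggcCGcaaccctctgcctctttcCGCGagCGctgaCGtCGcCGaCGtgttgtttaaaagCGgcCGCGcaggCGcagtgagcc
DNMT1 (GRCh38.p14, chr19:10194954-10195203, minus strand): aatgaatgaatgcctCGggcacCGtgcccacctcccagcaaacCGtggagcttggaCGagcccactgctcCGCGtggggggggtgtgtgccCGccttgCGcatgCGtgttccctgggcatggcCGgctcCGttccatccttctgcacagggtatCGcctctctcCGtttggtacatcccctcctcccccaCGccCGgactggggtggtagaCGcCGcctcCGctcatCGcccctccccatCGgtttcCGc
LMNB2 (GRCh38.p14, chr19:2456960-2457209, minus strand): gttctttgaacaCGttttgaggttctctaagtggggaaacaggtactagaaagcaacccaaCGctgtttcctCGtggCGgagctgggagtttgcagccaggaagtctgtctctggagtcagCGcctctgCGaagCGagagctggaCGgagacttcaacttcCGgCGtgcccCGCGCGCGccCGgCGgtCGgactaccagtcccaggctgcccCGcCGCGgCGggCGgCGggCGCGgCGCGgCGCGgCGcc

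All 3 held more CG than the median promoter. CG stood 28 times in the TOP1 sequence, 21 times in that of DNMT1 and 30 times in that of LMNB2, against a median of 11 over the 35116 promoters of the table, cut to the same length. The ratio of observed to expected CG was 1.06 for TOP1, 0.773 for DNMT1 and 1.09 for LMNB2, and the median promoter had 0.558. The ratio was lower than that of LMNB2 in 96.9% of promoters, lower than that of TOP1 in 95.1% and lower than that of DNMT1 in 67.1%. None of the 3 held a G-quadruplex motif, searched on both strands as 4 runs of at least 3 G with 1 to 7 bases between runs, which 23.5% of the promoters held. That says only that these letters are not in these windows.

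Across the 6 windows the intervals were unevenly spread, from 1 at HBB and 6 at MCM4 to 9 at MYC, 29 at TOP1 and 32 each at LMNB2 and DNMT1. They came mostly from the earlier part of the timing programme: 28 were very early, 36 early, 35 mid early and 10 mid late, and no member was late or very late. The 3 earlier classes thus held 99 of 109 members (90.8%, exact 95% binomial interval 83.8% to 95.5%), against 79.9% of the 710 intervals in the flanks and 70.0% of all intervals. Of the 10 mid late members, 9 were at TOP1, and without that locus the share was 98.8%. The flank share of 79.9% still includes TOP1, so it is not the like comparison for 98.8%. Among the 122 flank intervals of TOP1, 74 were mid late, 33 late and 4 very late. The median fold of the members was 4.83, with quartiles of 3.73 and 6.33, and that of all intervals was 4.73, with quartiles of 3.79 and 6.38. A fold of 10 or more was reached by 8 members (7.34%), 5 of them at LMNB2, 2 at DNMT1 and 1 at TOP1, and by 7.17% of all intervals. The members' share was near that background, and without the LMNB2 locus it was 3.90%. A width of 1 kb or more was found in 37 members (33.9%), against 30.3% of flank intervals and 26.9% of all intervals. Without the LMNB2 locus the members' share was 29.9%, and without any other single locus it was 32.5% to 35.9%. The flank share of 30.3% still includes LMNB2, so it is not the like comparison for 29.9%. At LMNB2 itself 116 of 239 flank intervals and 14 of 32 members were that wide. The binomial interval treats the members as independent, although neighbours share a locus, and it covers counting error only.

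**Figure D1:**
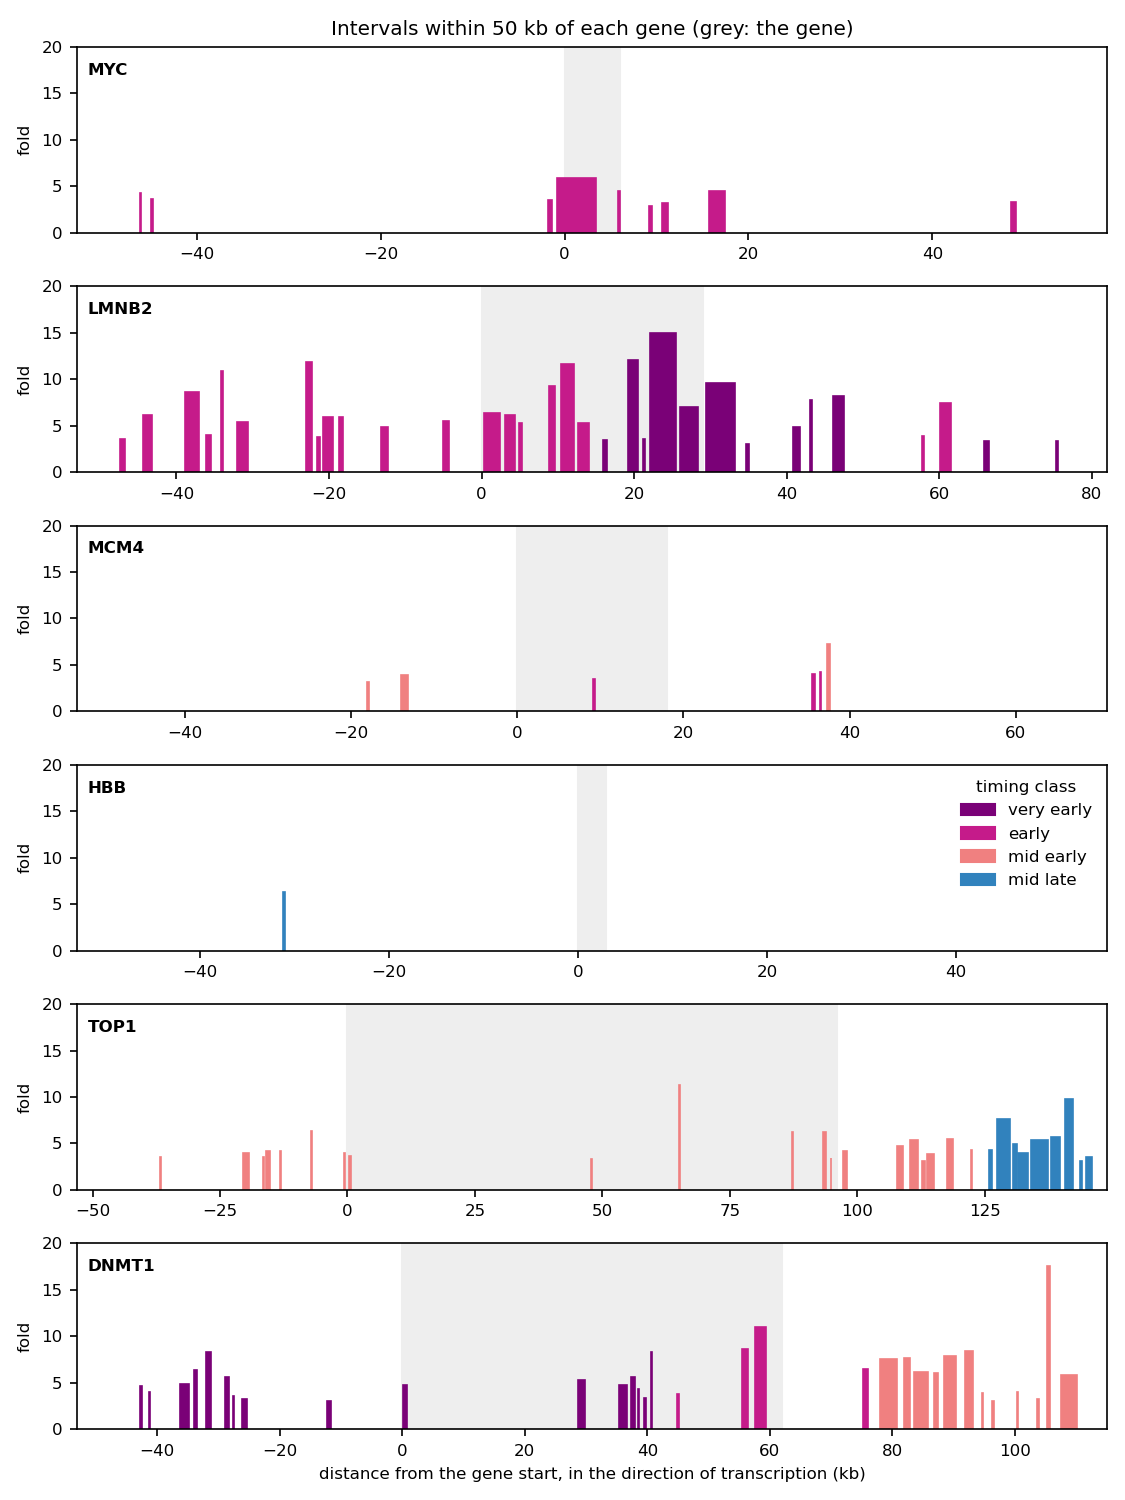
Intervals within 50 kb of each gene, placed by distance from the gene start in kb along the direction of transcription; bar height is the fold of the replicate 1 peak, bar width is the interval to scale, colour is the timing class and grey is the gene. The strongest bar is the mid early interval at DNMT1 (17.6-fold), HBB has a single bar, and TOP1 is bare over much of the gene.

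At the gene starts the 6 loci differed. An interval covered the start of MYC as placed here or lay within 1 kb of the starts of DNMT1, TOP1 and LMNB2, at 99, 253 and 362 bp. Starts were given in whole kb, and how they were rounded is not stated, so each can be off by up to 1 kb. These 3 distances therefore do not tell an interval over a start from an interval beside it. The nearest interval was 9.10 kb from the start of MCM4 and 31.0 kb from that of HBB. Of positions spaced 1 kb along chromosomes 1 to 22 and X, 13.4% lay within 1 kb of an interval. That share was higher on chromosomes 19 and 20, at 38.0% and 27.7%, and 10.97% and 17.2% on chromosomes 8 and 11, and it counts all positions and not gene starts. The count of 4 starts was 4 at 2 kb as well, and at 500 bp, a distance no larger than the rounding error. Among intervals whose replicate 1 peak had a −log10 q of at least 5 it was 2, because the peaks at DNMT1 (4.91) and TOP1 (3.20) fell below. At the gene ends, 2 of the 6 genes had an interval within 1 kb, MYC and LMNB2.

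**Figure D2:**
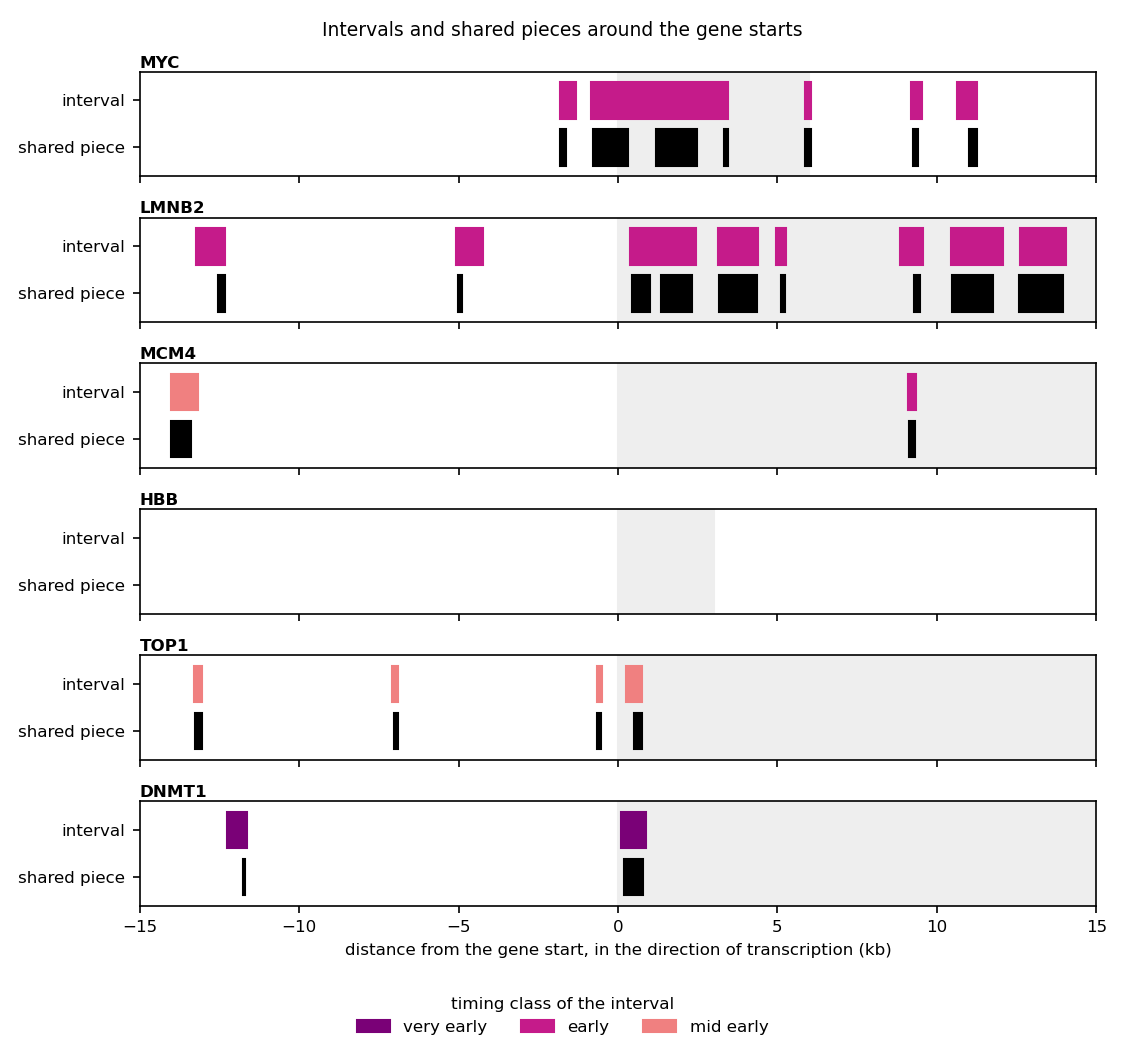
The 15 kb on each side of the 6 gene starts, in kb along the direction of transcription, with intervals above (coloured by timing class), shared pieces below in black and the gene in grey. Starts are placed in whole kb. An interval covers the start of MYC, intervals lie within 1 kb of the starts of LMNB2, TOP1 and DNMT1, and the panel of HBB is empty.

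MCM4 encodes a subunit of the helicase that is loaded at origins, and its window held 6 intervals, fewer than any of the other windows but that of HBB, with a median width of 284 bp against 558 bp over all intervals. All 6 are given here. On the upstream side a mid early interval of 200 bp lay at 48854887 to 48855086 with a fold of 3.20, and a second, of 863 bp, at 48858977 to 48859839 with 3.86. Inside the gene there was 1 interval, early, at 48882103 to 48882337, 235 bp wide and 3.44-fold. Downstream there was a cluster of 3, at 48908466 to 48908897 (early, 4.05-fold), 48909476 to 48909602 (early, 4.21-fold) and 48910275 to 48910607 (mid early, 7.25-fold). The last was the strongest of the window, above 82.0% of all intervals in fold. The gene start lay in a stretch of 22.3 kb without an interval. Replicate 1 peaks are numbered in order of position, and 2 numbers were skipped in that stretch, and likewise 2 in the 26.1 kb that hold the gene end. Replicate 1 therefore had peaks near MCM4 that are not in the shared list, at positions the files do not give. From the first to the last listed peak of the window, 6 of 11 peak numbers were listed (54.5%), and 64.0% when the flanks were added. In RefSeq's GRCh38.p14 table the coding neighbours of MCM4 are PRKDC, the catalytic subunit of a DNA repair kinase, and UBE2V2.

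TOP1 encodes topoisomerase I, which relaxes supercoils ahead of the fork and of RNA polymerase. Near its start lay a pair of weak mid early intervals, at 39656343 to 39656507 (165 bp, 3.94-fold) and at 39657254 to 39657740 (487 bp, 3.66-fold). Both folds lie below the median of all intervals. The start as placed here, in whole kb, falls between the pair, 253 bp before the second. The second overlaps the gene as placed, but whether it covers the start cannot be told. The gene body was sparse, with 6 intervals over 96 kb, or 6.25 per 100 kb, against 12.2 in the flanks. Downstream of the start came 47.1 kb without an interval, longer than 97.5% of such gaps on chromosome 20, and the peak numbers on its sides are consecutive. No peak of replicate 1 thus lay wholly within that stretch. The other 5 intervals in the gene were all mid early. The strongest, at 39722029 to 39722295, was only 267 bp wide and 11.3-fold, and 91.4% of it was covered by peaks of both libraries. The rest were at 39704807 to 39704936 (3.34-fold), 39744136 to 39744331 (6.21-fold), 39750341 to 39750873 (6.23-fold) and 39751834 to 39751937 (3.39-fold), and just past the gene end lay 39754169 to 39755003 (4.22-fold).

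The 3′ side of TOP1 was fuller than its 5′ side, with 16 intervals against 7. Median width was 1196.5 bp on the 3′ side, 248 bp on the 5′ side and 231.5 bp in the gene. Timing changed along it: 20 intervals from 39620200 to 39779555 were mid early, and the 9 from 39782767 to 39803089 were mid late. The mid late run packed its intervals into 20.3 kb, with a median width of 1638 bp against 379 bp in the mid early run. It held the next strongest members of the window, at 39797792 to 39799429 (9.74-fold) and 39784403 to 39787002 (7.61-fold), and the widest, at 39791069 to 39794482 (3414 bp, 5.36-fold). PLCG1, a phospholipase gene, is among the next coding genes after TOP1 in the RefSeq table.

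DNMT1 encodes the methyltransferase that copies DNA methylation onto the new strand behind the fork. A very early interval of 771 bp lay at its start, from 10305131 to 10305901, with a fold of 4.74, close to the median of all intervals, and shared pieces covered 77.8% of it. Into the gene followed 27.8 kb with no interval, the longest gap of the window and longer than 97.0% of gaps on chromosome 19, in which 1 peak number was skipped. On the other side of the start the next interval, at 10317622 to 10318261 (3.03-fold), came after a gap of 11.7 kb. The remaining 9 intervals in the gene lay toward its 3′ end. Of these, 6 were very early and stood together at 10265165 to 10277341, with folds from 3.38 to 8.35. The other 3 were early, at 10260861 to 10261171 (3.76-fold), 10249555 to 10250509 (8.59-fold) and 10246566 to 10248469 (10.98-fold, 1904 bp wide).

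Timing in the DNMT1 window ran in 3 unbroken runs. From the 5′ side of the gene the intervals were very early (16, over 83.6 kb), then early (4, over 31.2 kb) and then mid early (12, over 32.02 kb), so both changes of class fell in the gene or past its 3′ end. The mid early run at 10195970 to 10227992 had a median fold of 6.10, against 4.74 in the very early run. It held the strongest member of all 6 windows, at 10200275 to 10200808, 534 bp wide and 17.6-fold, above 98.7% of all intervals. Peaks of both libraries covered 50.7% of it. The coding neighbours of DNMT1 in the RefSeq table are EIF3G, a translation factor subunit, and S1PR2, a lipid receptor.

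LMNB2 encodes lamin B2, a protein of the nuclear lamina, and its window was the densest. The gene itself held 11 intervals in 29 kb, or 37.9 per 100 kb, against 23.9 in the flanks. Their median fold was 6.34, and 5.47 outside the gene. At the 3′ end, where the classical origin lies, an interval stopped short of the gene and the next began within it. The first spanned 2423726 to 2427513 (3788 bp, 9.54-fold) and the second 2428662 to 2430939 (2278 bp, 7.01-fold). The 1148 bp between them, from 2427514 to 2428661, hold the end of the gene as placed here and no peak number. Within the gene, next to the second, lay the strongest interval of the window, at 2431451 to 2434932. It was 3482 bp wide and 14.96-fold, above 97.9% of all intervals, and 89.9% of it was shared by both libraries. A further member of over 10-fold lay at 2436493 to 2437740 (12.01-fold), with a weak 259 bp interval in between (3.57-fold), and the last of the very early intervals in the gene lay at 2440549 to 2441112 (3.46-fold).

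These intervals belonged to a very early run of 10 that spanned 31.6 kb from 2409526 to 2441112 and had a median fold of 7.36. The rest of the gene, toward its start, was early. It held 2442936 to 2444402 (5.27-fold), 2444936 to 2446555 (11.7-fold), 2447420 to 2448144 (9.31-fold), 2451737 to 2452054 (5.25-fold), 2452605 to 2453876 (6.17-fold) and 2454549 to 2456638 (2090 bp, 6.34-fold). That last interval ended 362 bp short of the start as placed here. Upstream, the nearest lay at 2461223 to 2462065 (5.47-fold), and the strongest was the early interval at 2479263 to 2480019 (11.8-fold). The coding neighbours of LMNB2 in the RefSeq table are TIMM13, a mitochondrial import chaperone at the 3′ side, and GADD45B.

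MYC encodes a transcription factor that drives growth and proliferation, and all 9 intervals of its window were early. The largest covered the gene start as placed here, from 128747146 to 128751456. At 4311 bp it was wider than 98.4% of all intervals, and its fold of 5.92 was the highest of the window but above only 69.9% of all intervals. Peaks of both libraries met in 3 pieces of it, of 1096, 1283 and 133 bp, which covered 58.3% of its bases. The first piece spanned the start as placed here. Upstream, 1326 bp from the start, ended a second interval, at 128746187 to 128746675 (489 bp, 3.47-fold). A further one lay over the gene end, at 128753853 to 128754062 (210 bp, 4.51-fold).

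The other MYC intervals were weak. Downstream stood 128757189 to 128757534 (2.89-fold), 128758635 to 128759271 (3.23-fold), 128763711 to 128765491 (1781 bp, 4.47-fold) and 128796583 to 128797110 (3.28-fold). Far upstream stood 128701776 to 128701952 (4.32-fold) and 128703018 to 128703186 (3.58-fold), followed by 43.0 kb without an interval in which 1 peak number was skipped. Copy number at MYC and at the other loci was not analysed here.

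HBB encodes beta-globin, which is made in red cell precursors, and it was the emptiest locus. No interval or shared piece overlapped the gene. The single member of its window lay at 5279980 to 5280210 on the 5′ side, mid late, 231 bp wide and 6.30-fold, with a shared piece of 104 bp. The gene stood in a stretch of 93.6 kb without an interval, from 5186395 to 5279979, longer than 97.4% of gaps on chromosome 11. The peak numbers on both sides of the stretch are consecutive, so no peak of replicate 1 lay wholly within it either. The flanks were sparse too, with 15 intervals over 1000 kb, of which 12 were mid late and 3 late. Of 28619 windows of the same length laid end to end over the chromosomes, 30.1% held no interval and 53.4% held more than 1. Such windows include stretches where reads may not map. The coding neighbours of HBB in the RefSeq table are HBD, another globin gene, and OR51V1, an olfactory receptor gene.

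The density of each window was set against that of its own flanks, the 500 kb on each side. It was 24.8 intervals per 100 kb at LMNB2, 19.8 at DNMT1, 14.8 at TOP1, 8.49 at MYC, 5.08 at MCM4 and 0.971 at HBB. The flanks had 23.9, 17.4, 12.2, 9.30, 6.70 and 1.5 in the same order. The ratio of window to flanks was above 1 at TOP1 (1.21), DNMT1 (1.14) and LMNB2 (1.04) and below 1 at MYC (0.913), MCM4 (0.759) and HBB (0.647), with a median of 0.975 over the 6 loci. At 5 of the 6 genes, all but HBB, the window's density lay between those of its flanks. At MCM4 they were 2.4 upstream and 11 downstream, and at DNMT1 22.8 upstream and 12 downstream.

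Set against the chromosomes, 5 of the 6 windows were above the middle. The windows compared were not matched for gene content and include stretches where reads may not map. Between 19.2% (length of the TOP1 window) and 30.1% (length of the HBB window) of them held no interval. The share of windows of like length with fewer intervals was 94.8% for LMNB2, 91.2% for DNMT1, 86.4% for TOP1, 77.0% for MYC, 68.0% for MCM4 and 30.1% for HBB. Within the gene's own chromosome the order was another, with 82.3% for MYC, 77.9% for LMNB2, 72.3% for MCM4, 64.7% for TOP1, 62.0% for DNMT1 and 24.2% for HBB. The share was thus higher than the genome-wide one at MYC and MCM4 and lower at the other 4. The loci with few intervals depend on the window: at 25 kb HBB had none, and the ratio at MCM4 was 1.40. At 100 kb MCM4 had 0.377 and HBB 1.31. At MYC the ratio was 0.582 against flanks of 250 kb and 1.48 against flanks of 1 Mb. The loci with more intervals did not keep a ratio above 1 either. Under all the alternatives described below, it ran from 0.905 to 1.77 at TOP1, 0.760 to 1.31 at DNMT1 and 0.954 to 1.20 at LMNB2.

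**Figure D3:**
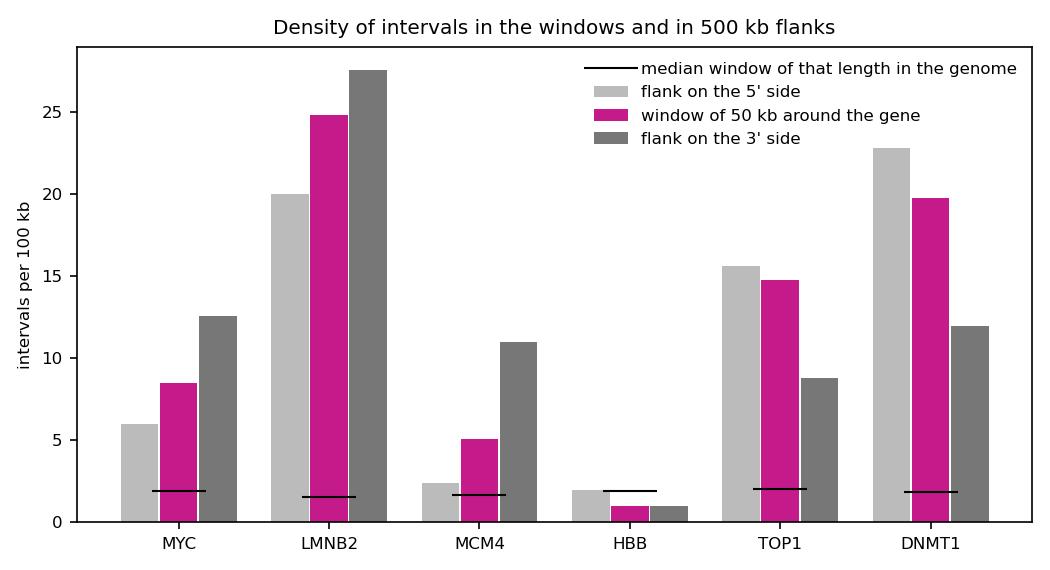
Intervals per 100 kb in the window of each gene and in the 500 kb flank on its 5′ and 3′ side; the black mark is the median over windows of the same length in the genome. From MYC to DNMT1, all windows but that of HBB stand between their flanks and above the genome mark.

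The mix of timing classes in the windows differed from that of the flanks, to varying degrees. The TOP1 window was mid early in 20 of 29 intervals, whereas the flanks held 11 mid early, 74 mid late, 33 late and 4 very late intervals. The flanks of MYC held 68 early intervals beside 16 mid early and 9 very early, where the window had early ones alone. At LMNB2 the flanks held 67 very early, 129 early and 43 mid early intervals, and the window none of the last class. The flanks of DNMT1 were early in 97 of 174 intervals and very early in 52, while the window had 4 early, 16 very early and 12 mid early. At MCM4 the flanks ranged over 20 very early, 23 early, 13 mid early and 11 mid late intervals, and the window held 3 early and 3 mid early. Neighbouring intervals share a timing domain, so these counts are not independent.

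The part of the sequence that intervals covered set MYC apart from its count. At MYC 8.16% of the window was covered against 4.83% of the flanks, although the window had slightly fewer intervals per 100 kb. The wide interval over the gene start made up 4.311 of the 8.648 kb covered. Coverage was 27.6% against 31.0% at LMNB2, 17.6% against 15.3% at DNMT1, 13.3% against 8.905% at TOP1, 1.86% against 3.09% at MCM4 and 0.224% against 0.534% at HBB.

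Median fold and width were also set against the flanks. The median fold in the window was 5.91 at LMNB2, 5.42 at DNMT1, 4.23 at TOP1, 3.95 at MCM4 and 3.58 at MYC, and the flanks had 5.39, 4.92, 4.64, 4.25 and 3.93. The ratio was thus 1.098 at LMNB2, 1.1003 at DNMT1 and 0.911 to 0.930 at TOP1, MCM4 and MYC. At HBB the single interval, at 6.30-fold, stood against a flank median of 3.85. LMNB2, DNMT1 and TOP1, with the most intervals, were ahead of MCM4 and MYC in median fold, while MYC, with more intervals than MCM4, had the lower one. The median width was 865 bp at LMNB2, 707 bp at DNMT1, 606 bp at TOP1, 489 bp at MYC, 284 bp at MCM4 and 231 bp at HBB, and the ratio to the flanks ran from 0.783 at HBB to 1.27 at MYC. Peak numbers were counted from the first to the last listed peak of each window. Of these, 109 of 148 were listed (73.6%, exact 95% binomial interval 65.8% to 80.5%), against 71.2% over the whole series. The ends of each count are thus listed by construction, and HBB, with a single peak, was bound to give 100%. The shares therefore cannot tell whether more peaks were listed in the windows than over the series. The binomial interval also treats neighbouring peaks as independent. With no per-library values and no test, none of the ratios of window to flanks can be set against replicate error.

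**Figure D4:**
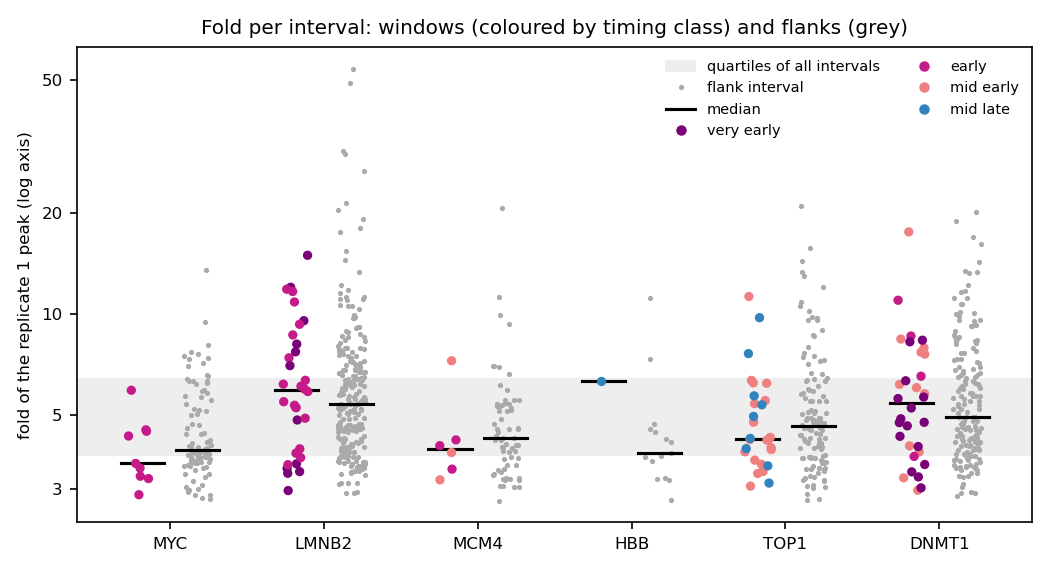
Fold of the replicate 1 peak (log axis) for each interval in the 6 windows, coloured by timing class, beside the intervals of their flanks in grey; black lines are medians and the grey band spans the quartiles of all intervals, 3.79 to 6.38. The window medians lie close to those of the flanks except at HBB, which has 1 interval.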

How the data were processed

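The authors deposited 1 broad peak list and 6 interval lists, 1 per timing class, each pooled over both libraries. BWA, MACS2 and hg19 are named, without versions, in the submitters' processing notes. Not given in the sources used here are the use of a control and the rule behind the timing classes. As deposited by the authors, fold and −log10 q belong to whole peaks of replicate 1, whose library name the peak names carry. The deposited score of the interval lists is constant and was not used. Positions were made 1-based, and a name on 2 lines was counted once. An interval's fold is that of the replicate 1 peak with the largest overlap. Windows reached 50 kb from the gene and flanks 500 kb beyond. RefSeq tables of GRCh38.p14 gave names, neighbours and promoter sequence only, and no position was converted between builds.

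The genes and rules were chosen with earlier results of these data known. Named were the intervals nearest each gene end, those in a gene or within 5 kb, the 3 highest by fold, and all of a window with 10 or fewer. The widest interval at TOP1 and the next one upstream of DNMT1 were added after their values were seen. Other licensing genes and interval sequences were not analysed here. No p-value was computed, since the lists hold no replicate. The functions were checked on simulated lists. The alternatives were other windows, flanks, a −log10 q minimum, a width minimum, lines counted or merged, the highest fold, and each locus left out. Python 3.11.15, numpy 2.4.6, pandas 2.3.3 and matplotlib 3.10.9 were used.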

Additional observations from a re-analysis of the deposited data

How the results depend on the processing

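The 109 members became 68 with a window of 25 kb and 183 with 100 kb, as the change of window implies, and 56 with a minimum of 5 for −log10 q. As a median over the loci, the ratio of window to flank density was 1.21 with a window of 100 kb and lay between 0.861 and 1.13 under the other alternatives. The median ratios of fold and width stayed between 0.930 and 1.098 and between 0.886 and 1.1004. The gene starts with an interval within 1 kb were 2 with the same q minimum and 4 under the other alternatives. Those alternatives for the gene starts, and those for timing, retention and the 10-fold share, were chosen after the data were examined. A fold of 5 or more was reached by 46.8% of members and 44.5% of all intervals. With each locus left out in turn, the share in the 3 earlier classes ran from 87.0% to 98.8% (without TOP1), and the share past 10-fold from 3.90% (without LMNB2) to 8.75%. Of the density and fold ratios of single loci under the alternatives, 90 stayed within 1.5 times and 11 did not, 10 of them densities and 1 the fold ratio of HBB (0.680), all at MYC, MCM4 or HBB, whose windows hold 9, 6 and 1 intervals. Under that q minimum densities gave ratios of 0.524 at MYC, 0.326 at MCM4 and 4.85 at HBB. The density ratios at TOP1, DNMT1 and LMNB2 stayed within 1.5 times, but each fell on both sides of 1. No replicate could be left out and no paired analysis was possible because the lists are intersections of both libraries. Read depth is unknown, so an empty stretch may hold starts too weak for both libraries. Both libraries are from 2 hours after release, and use of starts at other times was not tested.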
